A study of Homo sapiens with 24 samples.

Results

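The genes of the HAT1 complex and of the histone chaperones that receive new histones H3 and H4 were examined in cells that the labels name hTert-HME1, a line of human breast epithelial cells kept dividing by telomerase. The tables hold no marker of cell identity, and whether the Rbap46 and input libraries are of the labelled line was not settled, because of the input levels given with the values. The set comprised 8 genes, and its sites were all those within 1.5 kb of 8 start sites given to the nearest 100 bp in build hg19. In total 13 sites met this rule, of 32666 in the authors' 2 deposited tables. These were 7 sites for Rbap46 and 6 for acetylation of histone H3 at lysine 9 (H3K9ac). The measured quantity was chromatin immunoprecipitation followed by sequencing (ChIP-seq). One table set Rbap46 ChIP (2 libraries) against input chromatin (2 libraries), all from untreated cells. The other set H3K9ac in cells with a control hairpin (shControl, 3 libraries) against cells with a short hairpin RNA against HAT1 (shHAT1, 3 libraries). The sample titles carry a different suffix for each hairpin library, and the labels do not say whether these are clones. Nothing says that the libraries of a group came from separate cultures, so the authors' p-values may measure technical spread only. The HAT1, H4K5ac and H4K12ac libraries were not analysed here.

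HAT1 is the catalytic subunit of the cytoplasmic and nuclear B-type histone acetyltransferase, which acetylates the tail of newly made histone H4. Its partner Rbap46, the protein of the RBBP7 gene, holds the histone for the enzyme. RBBP4 encodes the close relative RbAp48, which is also a subunit of chromatin assembly factor 1 (CAF-1) with the products of CHAF1A and CHAF1B. NASP guards the soluble pool of H3 and H4, and the ASF1 proteins, made from ASF1A and ASF1B, pass H3-H4 dimers on to CAF-1 at the replication fork. The Rbap46 antibody therefore read a protein whose own gene is in the set, and the hairpin targeted another gene of the set.

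The start regions are shown first because the results turn on sites placed over them. RefSeq promoters of 300 bases (250 before to 50 after the start) were matched by symbol for all 8 genes. RBBP7 and RBBP4 have 2 starts each, which gives 10 promoters. The sequences are of GRCh38.p14, so their coordinates are not comparable with the hg19 positions of the sites. The 5 printed are those of the targeted gene HAT1 (chr2:171922211-171922510, plus strand), of NASP with its pair of H3K9ac sites (chr1:45583791-45584090, plus strand), of CHAF1A with the highest H3K9ac level (chr19:4402390-4402689, plus strand), of ASF1B with the smallest Rbap46 difference (chr19:14136540-14136839, minus strand) and of CHAF1B with no site (chr21:36385142-36385441, plus strand). Each reads 5′ to 3′ along the gene. Capitals mark CCAAT and GGGCGG on either strand (as ATTGG and CCGCCC when inverted) and, in ASF1B, TTTGAA.
HAT1: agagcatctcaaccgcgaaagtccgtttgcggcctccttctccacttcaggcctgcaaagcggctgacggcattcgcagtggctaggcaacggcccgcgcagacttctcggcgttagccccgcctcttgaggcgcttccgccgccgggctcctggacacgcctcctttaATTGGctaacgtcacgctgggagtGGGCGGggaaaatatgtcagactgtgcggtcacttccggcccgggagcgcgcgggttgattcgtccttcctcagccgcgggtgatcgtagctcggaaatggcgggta
NASP: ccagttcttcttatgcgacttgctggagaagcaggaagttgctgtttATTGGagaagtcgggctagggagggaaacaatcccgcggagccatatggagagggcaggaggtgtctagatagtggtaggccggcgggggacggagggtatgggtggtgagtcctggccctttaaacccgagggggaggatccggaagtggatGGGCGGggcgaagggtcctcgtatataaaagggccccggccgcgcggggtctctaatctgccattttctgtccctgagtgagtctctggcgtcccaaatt
CHAF1A: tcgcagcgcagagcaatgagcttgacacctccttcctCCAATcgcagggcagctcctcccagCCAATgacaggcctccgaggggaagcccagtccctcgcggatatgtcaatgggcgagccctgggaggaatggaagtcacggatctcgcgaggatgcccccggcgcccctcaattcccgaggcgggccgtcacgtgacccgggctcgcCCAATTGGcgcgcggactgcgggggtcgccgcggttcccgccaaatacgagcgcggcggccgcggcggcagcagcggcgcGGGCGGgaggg
ASF1B: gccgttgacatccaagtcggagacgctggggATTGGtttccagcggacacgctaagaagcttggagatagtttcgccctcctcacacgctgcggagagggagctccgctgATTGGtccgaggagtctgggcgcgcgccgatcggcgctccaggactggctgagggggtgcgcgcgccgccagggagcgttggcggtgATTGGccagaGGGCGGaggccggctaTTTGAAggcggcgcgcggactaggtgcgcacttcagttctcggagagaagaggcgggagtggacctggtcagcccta
CHAF1B: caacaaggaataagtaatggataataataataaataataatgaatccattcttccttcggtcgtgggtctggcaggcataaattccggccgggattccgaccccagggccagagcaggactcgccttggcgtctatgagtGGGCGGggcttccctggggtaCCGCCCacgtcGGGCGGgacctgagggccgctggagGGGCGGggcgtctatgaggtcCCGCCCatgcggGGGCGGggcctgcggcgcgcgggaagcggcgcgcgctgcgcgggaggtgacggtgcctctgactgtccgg

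All 10 promoters held GGGCGG, the GC box, which 44.9% of all 35093 RefSeq promoters of this length also hold. CCAAT, the box read by the factor NF-Y, was found in 9 of the 10 promoters, against 34.6% of all promoters. These 9 belong to 7 genes, namely the 7 with an Rbap46 site, and CHAF1B had no CCAAT in this window. That match rests on 1 gene without a listed site. The share of CCAAT among all promoters with and without an Rbap46 site was not analysed here, so no link is drawn. The 2 RBBP4 promoters overlap and share the copy that began 54 bases before the first start and 202 bases before the second. In ASF1A the only copy began 15 bases after the start. In ASF1B the inverted box began 53 bases before the start, with 2 further copies at 140 and 219 bases. In HAT1 it began 81 bases before the start and in NASP 203 bases before it. CHAF1A had 4 copies, of which a direct and an inverted copy overlapped at 41 and 38 bases before the start. The letters TTTCGCGC and TTTGGCGC, forms of the E2F site, and TGACGTCA, the full cyclic AMP response element, were in 0 of the 10 promoters on either strand. They occur in 0.516%, 0.653% and 1.85% of all promoters. Only these exact letters were searched, so other forms of these sites were not analysed here. TTTGAA was in the ASF1B promoter alone, against 15.2% of all promoters. The promoters held between 17 CpG dinucleotides (NASP) and 54 (RBBP7), and all 10 were above the median of 14 over all promoters. These matches are descriptions of letters, and CpG-rich promoters are common among genes active in most cells.

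Before the values, 2 properties of the libraries bear on them. The authors' columns are means of each group on a log2 scale (log2 of the mean normalized read concentration at the site), so no spread between libraries and no depth per library can be given, and precision is known only through the authors' p-value and false discovery rate (FDR). The input level was raised over segments of chromosomes 22 and 9. Over 184 Rbap46 sites between 19 and 24 Mb of chromosome 22 its median was 7.47 in the authors' deposited table, against 5.50 elsewhere on that chromosome. Between 134 and 135 Mb of chromosome 9, the 1-Mb window of that chromosome with the highest median among those of at least 10 sites, it was 6.63 over 22 sites, against 5.72 elsewhere. None of the 8 genes lies on these chromosomes. Whether the H3K9ac libraries share these rises was not tested, so it was not settled that both tables are of the same cells, as labelled. This touches all 7 Rbap46 values and every comparison of Rbap46 with H3K9ac sites.

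The first question was whether Rbap46 stood above input at the start sites of these genes. It did at 7 of the 8 genes, HAT1, RBBP7, RBBP4, NASP, ASF1A, ASF1B and CHAF1A, with 1 site each. CHAF1B had none. For reference, 37.6% of the 80831 sites that the authors tested were listed above input, a share of sites and not of genes. Between 1.61% (chromosome X) and 10.6% (chromosome 19) of the length between the first and last site of a chromosome lay within 1.5 kb of an Rbap46 site, over the 6 chromosomes that carry the genes. No annotation of hg19 was used, so the share of all start sites with an Rbap46 site was not analysed here, and the count says nothing particular to this set. The difference in log2 level, Rbap46 minus input, ran from 0.60 to 1.09 over the 7 sites. Its median of 0.94 was below the 1.05 of all 30475 listed sites.

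**Figure D1:**
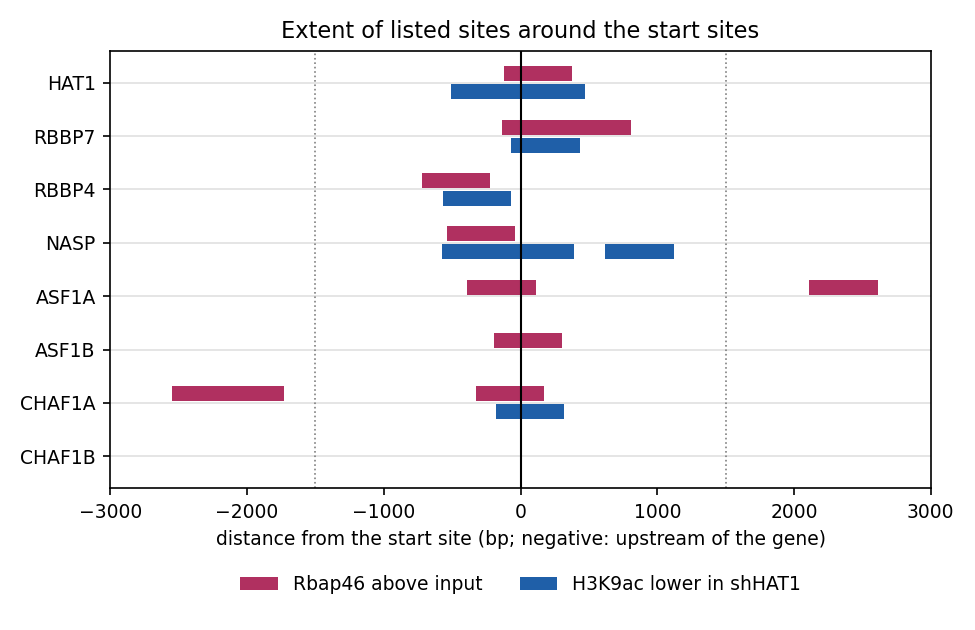
Extent of every listed site within 3 kb of the start sites, one line per gene, with distance in bp on the horizontal axis and dotted lines at the 1.5 kb limit. Rbap46 sites stand at 7 of 8 starts and H3K9ac sites at 5 of 8, and the ASF1A and CHAF1A sites outside the dotted lines did not count.

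Among the enzyme and its partners, the HAT1 site lay on chromosome 2 from 172778779 to 172779279 and covered the start, with its centre 129 bp downstream. Its levels in the authors' deposited table were 8.23 in Rbap46 and 7.16 in input. For the difference of 1.07 the authors' deposited table gave an FDR of 1.83e-09, at place 3227 of 30475 sites by p-value. At RBBP4 the site lay on chromosome 1 from 33115978 to 33116478, with its centre 472 bp upstream of the start. It had the highest Rbap46 level of the 7, at 8.30 against 7.21 in input, and the largest difference, 1.09, for which the authors' deposited table gave an FDR of 1.36e-09. RBBP7, the gene of the precipitated protein itself, had the weakest call. Its site on chromosome X from 16887690 to 16888633 had levels of 6.88 and 6.23 and a difference of 0.65, to which the authors' deposited table gave an FDR of 0.0259. A smaller difference was found at 3.26% of all listed sites. HAT1 and RBBP4 were the 2 genes that reached a 2-fold difference. Sites both listed and at least 2-fold above input made up 21.9% of all tested sites, and the fold of unlisted sites is unknown. RBBP7 was the only 1 of the 7 sites above an FDR of 0.01, a limit that 27.6% of tested sites passed.

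Of the H3-H4 chaperones, NASP had a site on chromosome 1 from 46049160 to 46049660, centred 290 bp upstream of the start. Its levels were 8.09 in Rbap46 and 7.24 in input, and the authors' deposited table gave the difference of 0.85 an FDR of 4.03e-06. The ASF1 paralogs differed in level, in input as well as in Rbap46, and their expression was not measured here. ASF1B, which is made mainly in dividing cells, had 7.90 in Rbap46 and 7.30 in input on chromosome 19 from 14247396 to 14247896. ASF1A, which is made more broadly, had 6.93 and 5.99 on chromosome 6 from 119215010 to 119215510. The higher level at ASF1B went with the smallest difference of the set, 0.60, to which the authors' deposited table gave an FDR of 0.00217. Of all listed sites, 1.51% had a smaller difference. At ASF1A the difference was 0.94, and the authors' deposited table gave it an FDR of 0.000745. Without values per library the 2 differences could not be tested against each other.

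The CAF-1 genes split. CHAF1A, for the large subunit, had a site over its start on chromosome 19 from 4402372 to 4402872. Its levels were 7.83 in Rbap46 and 6.88 in input, and the authors' deposited table gave the difference of 0.95 an FDR of 3.56e-06. A further Rbap46 site ended 1729 bp upstream of that start, with a difference of 1.10 at levels of 7.28 and 6.18 in the authors' deposited table. CHAF1B, for the middle subunit, had its nearest Rbap46 site 44.5 kb away on chromosome 21 from 37802244 to 37802744. The table lists only sites that passed the FDR limit, so a weaker difference or a lack of reads at CHAF1B cannot be told apart. ASF1A likewise had a second site outside the 1.5 kb limit, beginning 2111 bp downstream, at 6.21 against 5.09, a difference of 1.12 in the authors' deposited table.

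**Figure D2:**
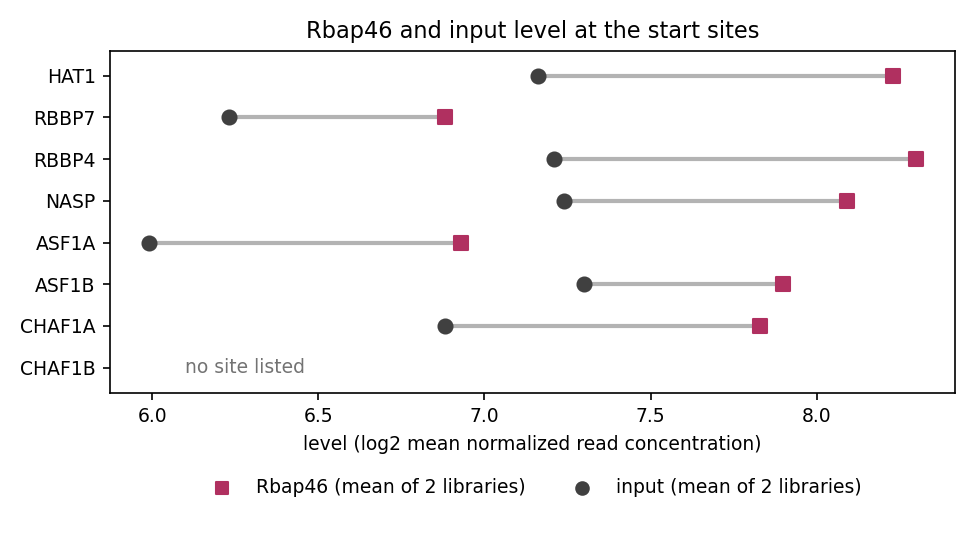
Rbap46 (squares) and input (circles) level at the site of each gene, as the authors' group means of 2 libraries on a log2 scale. Rbap46 lies above input at all 7 listed sites, and the gap is widest at RBBP4 (1.09) and narrowest at ASF1B (0.60).

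Input levels at most of these sites were high among listed sites, while the differences from input were not. All but the RBBP7 site, of 944 bp, were 501 bp wide, so levels were compared per 501 bp. On that scale 6 of 7 sites had an input level above the median of 5.82 of all listed sites, and 5 were above 90% of the listed sites of their own chromosome. The input level of HAT1 exceeded 99.4% of the listed sites of chromosome 2 and that of ASF1B exceeded 99.4% of those of chromosome 19. RBBP4 and NASP exceeded 96.2% and 96.7% of those of chromosome 1. ASF1A and RBBP7 were near the median of their chromosomes, with 46.5% and 52.8% of the sites below them. At all 7 sites the difference was smaller than the median of listed sites whose mean level, here as deposited, lay within 0.25 of theirs. That median was 1.24 for HAT1, 1.26 for RBBP4, 1.21 for NASP, 1.18 for ASF1B, 1.15 for CHAF1A and 0.98 for both ASF1A and RBBP7. The mean level is made from the Rbap46 and input levels. At a given mean level a higher input therefore gives a smaller difference by construction. This comparison is thus not separate from that of the input levels. The part of the input level in these differences was not tested.

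Within 100 kb of each start, the site at the start was not the most enriched site at any of the 7 genes. ASF1B lies among 19 Rbap46 sites and had the highest mean level of them but the smallest difference. CHAF1A was first of 10 sites by mean level and the seventh by difference. RBBP7 was the fourth of 6 by mean level and the last by difference. RBBP4 was the second of 9 by both. Levels here are again per 501 bp.

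The second question was how H3K9ac, a mark of active promoters, differed at these genes when HAT1 was depleted. H3K9ac was lower in shHAT1 than in shControl cells at 5 of the 8 genes, HAT1, RBBP7, RBBP4, NASP and CHAF1A, and higher at none, among sites listed at FDR under 0.1. Of the 12048 sites that the authors tested, 18.0% were listed as lower. Among the 2191 listed sites 2174 were lower and 17 higher, so the shared direction says nothing particular to this set. No site was listed at ASF1A, ASF1B or CHAF1B. Between 0.0933% and 0.803% of the length between the first and last Rbap46 site of the 6 chromosomes lay within 1.5 kb of a listed H3K9ac site. That is a share of length and not of start sites. The share of all start sites with a listed H3K9ac site was not analysed here, so the count says nothing particular to this set. NASP had 2 sites and the other genes 1 each. The difference in log2 level, shHAT1 minus shControl, ran from -1.30 to -0.69 over the 6 sites, with a median of -0.795, or 1.74-fold. Over all 2191 listed sites the median was -0.78, or 1.72-fold, so the median loss here was near that of listed sites of any level. The loss was then set beside the median of listed sites of like mean level, in the band used for Rbap46. It was larger at HAT1 (-0.79 against -0.68), RBBP4 (-0.86 against -0.75) and both NASP sites (-0.80 against -0.69 and -1.30 against -0.88). It was smaller at RBBP7 (-0.77 against -0.82) and equal at CHAF1A (-0.69). Mean levels were as deposited, and the HAT1 site and the first NASP site were 977 and 969 bp wide. Per 501 bp their mean levels were 8.53 and 8.47 in place of 9.49 and 9.42. A band on that scale was not used, so a larger loss at these sites was not settled. The mean level is also made from the shHAT1 level, so the band is not separate from the loss. Without values per library these gaps were not tested.

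HAT1, the gene targeted by the hairpin, had an H3K9ac site from 172778393 to 172779369 on chromosome 2, over the start. Its level was 9.83 in shControl and 9.04 in shHAT1 cells, per the authors' deposited table. A difference of -0.79 leaves 57.8% of the control level, and its FDR of 0.0883 from the authors' deposited table was the weakest call of the 6. The table does not measure HAT1 transcript or protein, so the depletion itself was not checked. RBBP7 had levels of 8.91 and 8.14 from 16888069 to 16888569 on chromosome X, which is a difference of -0.77, and the authors' deposited table gave it an FDR of 0.0645. RBBP4 had 9.33 and 8.47 from 33116130 to 33116630 on chromosome 1. To its difference of -0.86 the authors' deposited table gave an FDR of 0.0241, the only 1 of the 6 under 0.05, a limit that 6.56% of all tested sites passed as lower. No site of the set was under 0.01, as 0.365% of tested sites were.

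At NASP a wide site from 46049125 to 46050093 on chromosome 1 covered the start, with 9.76 in shControl and 8.96 in shHAT1 cells in the authors' deposited table. A second site, from 46050321 to 46050821, began 621 bp downstream of the start at 8.68 and 7.38. The authors' deposited table gave the first, with a difference of -0.80, an FDR of 0.0724 and the second, with a difference of -1.30, an FDR of 0.0686. The second left 40.6% of the control level. It was the only site of the set with at least a 2-fold loss, and 68 of the 2191 listed sites differed by as much or more. Sites both listed and with at least a 2-fold loss made up 3.34% of tested sites, and the loss at unlisted sites is unknown. Both FDR values lie above 0.05, and the sites share a promoter, so they count as 1 gene. CHAF1A had the highest H3K9ac levels, 10.09 in shControl and 9.40 in shHAT1 cells, from 4402519 to 4403019 on chromosome 19. Its difference of -0.69 was the smallest and left 62.0% of the control level, and the authors' deposited table gave it an FDR of 0.0543. Per 501 bp the CHAF1A level in shControl cells exceeded 91.1% of all listed sites, while the other 5 sites lay between 31.1% and 62.5%.

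**Figure D3:**
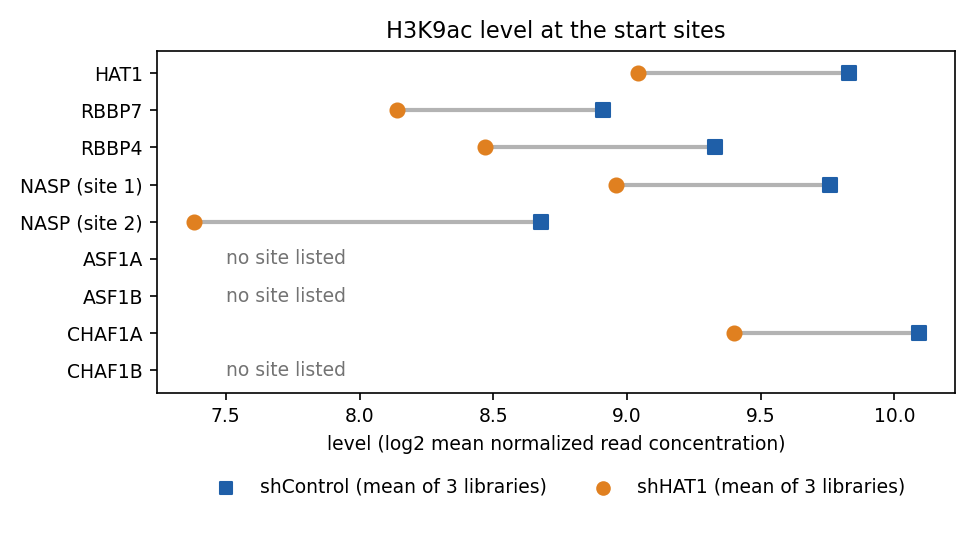
H3K9ac level in shControl (squares) and shHAT1 (circles) cells at each listed site, as the authors' group means of 3 libraries on a log2 scale. The shHAT1 level is lower at all 6 sites, and the gap is widest at the second NASP site (1.30) and narrowest at CHAF1A (0.69).

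Taking the site nearest the start of each of the 5 genes, the differences lay between -0.86 (RBBP4) and -0.69 (CHAF1A), which left 55.1% to 62.0% of the control level. The order from the largest to the smallest loss was RBBP4, NASP, HAT1, RBBP7 and CHAF1A. Neighbours in this order differed by 0.01 to 0.08 on the log2 scale, and no spread between libraries was given to set against these gaps.

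The surroundings differed. ASF1A had no listed H3K9ac site nearer than 1.29 Mb, CHAF1B none nearer than 687 kb and ASF1B none nearer than 286 kb. Because unchanged and undetected sites are not listed, this does not show that H3K9ac was equal at these genes in the 2 cell groups. Around RBBP4, a site 51.3 kb downstream on chromosome 1 from 33167954 to 33168922 went the other way. Its level was 7.03 in shControl and 8.25 in shHAT1 cells in the authors' deposited table (FDR 0.0379), and only 17 of the 2191 listed sites were higher in shHAT1 cells. Within 100 kb of HAT1 a second site from 172864741 to 172865241 fell by 1.05 on the log2 scale (FDR 0.0151 from the authors' deposited table). Within 100 kb of RBBP7 a second site from 16789829 to 16790329 fell by 1.21 (FDR 0.0204 from the authors' deposited table). NASP had 4 listed sites within 100 kb, all lower in shHAT1 cells.

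Rbap46 and H3K9ac sites were then laid over each other at the same genes, taking both tables to be of the labelled line. All 5 genes with a listed H3K9ac loss also had an Rbap46 site, ASF1A and ASF1B had Rbap46 alone, and CHAF1B had neither. An Rbap46 site overlapped 5 of the 6 H3K9ac sites, beside 76.1% of all 2191. At RBBP7 the whole H3K9ac site was covered. At CHAF1A, RBBP4, NASP and HAT1 the overlap was 70.7%, 69.7%, 51.7% and 51.3% of the H3K9ac site. The second NASP site was separated from the NASP Rbap46 site by 660 bp. At NASP and RBBP4 the Rbap46 site lay upstream of the start and the H3K9ac site reached further towards the gene. Sites of 3 genes cannot be assigned to 1 promoter alone. In RefSeq (GRCh38.p14, names only) ZBTB8OS, which is transcribed away from RBBP4, starts within 1.5 kb of it. The uncharacterised gene LOC105373740 starts as near to HAT1 and ADGRL1-AS1 as near to ASF1B, both on the opposite strand.

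**Figure D4:**
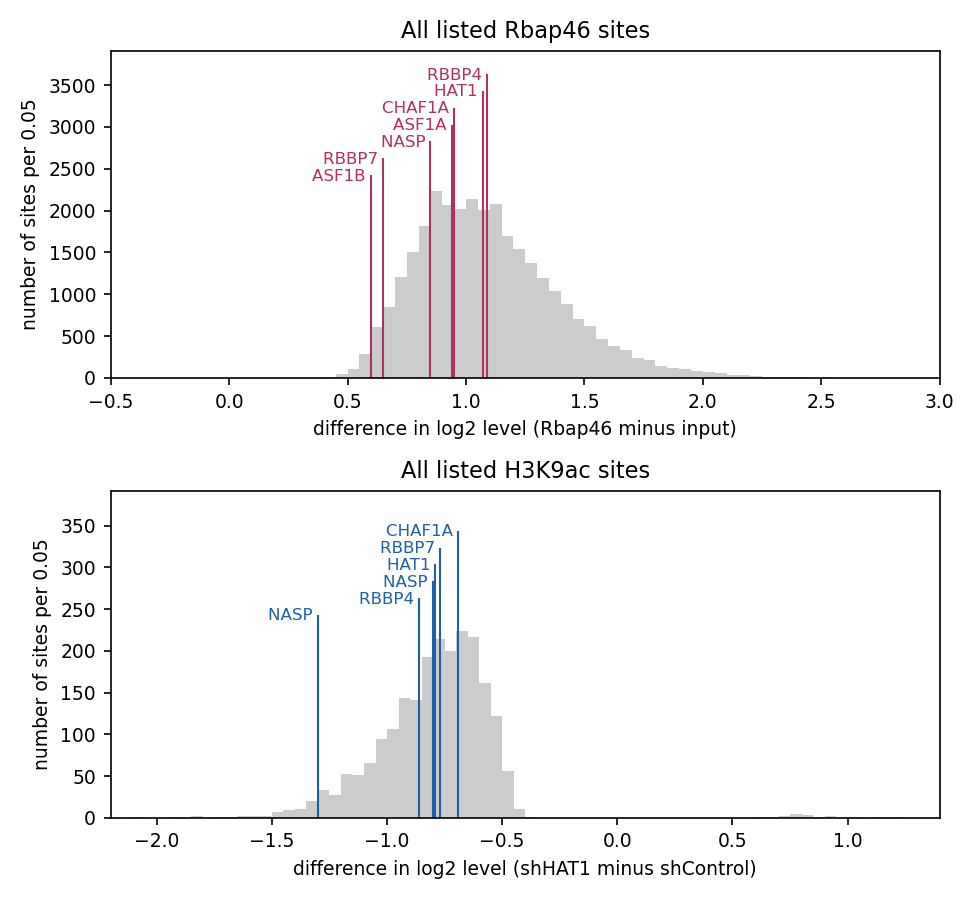
Number of listed sites (grey bars, 0.05 wide) by difference in log2 level, with lines at the sites of the named genes, for Rbap46 minus input (top) and shHAT1 minus shControl H3K9ac (bottom). The 7 Rbap46 sites lie between 0.60 (ASF1B) and 1.09, with ASF1B and RBBP7 (0.65) in the lower tail. The 6 H3K9ac sites lie between -1.30 (the second NASP site, in the tail of large losses) and -0.69. From top to bottom, 50 and 3 sites lie outside the plotted axes.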

How the data were processed

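ChIP-seq of 24 libraries in 9 groups is labelled, and the tables used here cover 4 groups with 10 libraries. Per the submitters' processing notes, reads were handled with cutadapt 1.8.1, Bowtie2, SAMtools 1.2, Picard 1.92, MACS2 2.1.0, R 3.3.1, DiffBind and DESeq2 on build hg19 (no versions for H3K9ac). Roles, scaling and the test were not given in the sources used here. Per the file headers, the authors deposited for each site log2 concentrations as group means, a log2 fold, a p-value and an FDR. The deposited fold equals the difference of the group levels within 0.01. H3K9ac differences were turned to shHAT1 minus shControl.

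Sites were taken by their nearest edge within 1.5 kb of the 8 start sites. The genes, start sites, motifs and comparisons were chosen with earlier results of these data known. The text names the 8 genes with every site in that window and the nearest site where there is none. A list of other chaperone genes was not analysed, since no hg19 start sites were used. The totals of tested sites (80831 and 12048) were derived from the rank, p-value and FDR as a Benjamini-Hochberg adjustment, and the derivation was tested on simulated data. The design foresaw a fit per site had values per library been given, and with group means none was made. Levels were not compared between the 2 tables, which were normalized separately. Alternatives were other windows, FDR limits, a 2-fold minimum and other overlaps. Promoters came from RefSeq. Python 3.11, numpy 2.4.6, pandas 2.3.3 and matplotlib 3.10.9 were used.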

Additional observations from a re-analysis of the deposited data

How the results depend on the processing

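The counts of 7 genes with an Rbap46 site and 5 with an H3K9ac site were the same within 0.5, 5 and 10 kb and with the centre of the site within 1.5 kb. At FDR under 0.01, 6 genes had an Rbap46 site, and with at least a 2-fold difference 2 genes had one. An FDR under 0.05 left 1 H3K9ac gene (RBBP4), a limit of 0.01 left 0, and a 2-fold minimum left 1 (NASP); these limits remove sites by construction. All 6 H3K9ac sites had a p-value under 0.05 in the authors' test, of which the largest was 0.0142, as every listed site did. The median Rbap46 difference of 0.94 became 0.95 within 5 kb, and the median H3K9ac difference became -0.79 with the nearest site of each gene (-0.795 over all 6 sites). The 5 overlapping H3K9ac sites were 5 at 50% overlap and 6 within 1 kb. Leaving out a library was not run, because the tables hold group means. No paired analysis was possible because only group means were used. Weak differences at sites with few reads are not detectable in lists limited by FDR.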
